A study of Bos taurus with 23 samples.

Results

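Endometrial biopsies from 4 of 23 cows carried a pattern of gene expression that set them apart from the other 19. They were non-pregnant replicates 4 and 6 plus pregnant replicates 22 and 23 (the numbers run through both groups), so 2 of the 4 came from cows that later conceived and 2 from cows that did not. The 4 biopsies were chosen by their position on the first principal component of all genes tested, which is the direction along which the 23 libraries varied most. Every gene contributed to that choice, so the differences in gene expression between the 4 biopsies and the other cows are given as a description with no test. Differences from the other cows were tested for measures that played no part in the choice, such as parity and sequencing depth. In the 4 biopsies, BHLHE40 (a transcriptional repressor of the circadian clock) and TRIB1 (a pseudokinase that directs proteins to degradation) were high. At both genes pregnant replicate 22 overlapped the other cows. COL26A1 (a collagen), SYT1 (a calcium sensor of vesicle secretion) and SKA2 (a protein of the mitotic spindle) were low. COL26A1 was as low in non-pregnant replicate 19, one of the other cows. For SYT1, non-pregnant replicate 4 lay just below the lowest of the other cows. These genes come from 50 that the study had selected, of which 4% were higher and 14% lower by 2-fold or more. Over all genes tested the shares were 11.8% and 13.4%.

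All 23 animals were lactating Holstein cows, sampled once each between days 6 and 8 of dioestrus, and none of the labels names a treatment, strain or genotype that differs between cows. Each cow received 1 in vitro produced embryo in the next cycle, and pregnancy was read at slaughter between days 26 and 47, which gave 12 pregnant and 11 non-pregnant cows. The biopsies were stored in RNAlater, and libraries were prepared from total RNA with a stranded Illumina protocol, 1 library per cow. The 19 other cows comprised 10 pregnant and 9 non-pregnant animals of parity 1 to 3, at 128 to 274 days from calving to transfer. Non-pregnant replicate 4 came from a cow of parity 1 at 219 days, and non-pregnant replicate 6 from a cow of parity 2 at 187 days. Pregnant replicates 22 and 23 both came from cows of parity 1, at 174 and 173 days.

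In early dioestrus the new corpus luteum releases rising amounts of progesterone, and the endometrium changes from a growing to a secreting tissue. Its glands then supply the fluid that nourishes the embryo before attachment, while the stroma, vessels and resident immune cells are remodelled. A biopsy holds all of these cells in one piece, so that fewer cells of a type and less RNA per cell cannot be told apart in these data. Marker genes of endometrial cell types were not analysed here, since genes appear in the deposited tables under Ensembl identifiers without symbols. Gene names were at hand for the 50 receptivity genes that the study selected, and these are the genes named below.

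Reads counted in genes numbered 16742591 in non-pregnant replicate 4, 20507100 in non-pregnant replicate 6, 18730880 in pregnant replicate 22 and 11736667 in pregnant replicate 23, within the range of the other 19 libraries (6920879 to 27357249). Of 24616 genes, 14852 passed the filter on low counts and were used throughout. Reads outside annotated genes made up 75.5% and 76.7% of pregnant replicates 20 and 21, which are among the 19, and up to 59.6% of the remaining 17, so the main counts below are given with and without them. The remaining 17 had at least 14147023 reads in genes, so pregnant replicate 23 was shallower than each of them. Pregnant replicate 5, also among the 19, stood out by its composition, with 34.1% of its counts in its 10 most abundant genes. Its values are given where it lay closest to the 4.

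The first principal component was computed on variance stabilised counts (vst, a log-like scale made without knowledge of the groups) and held 43.2% of the variance. On it, non-pregnant replicate 4 lay at 49.7, non-pregnant replicate 6 at 76.3, pregnant replicate 22 at 97.8 and pregnant replicate 23 at 83.5. The other 19 libraries lay between -26.9 and 9.75. Expressed in median absolute deviations (MAD, a measure of spread that a few extreme samples hardly move), the member nearest to the threshold of 5 was non-pregnant replicate 4 at 6.73, and the nearest library outside was pregnant replicate 5 at 2.69. The other members lay at 9.42, 11.6 and 10.2. Without pregnant replicates 20 and 21 the same 4 libraries passed the threshold, the lowest of them at 8.12 and the highest other at 3.30. The 4 biopsies did not share a position on the third component, which held 8.93% of the variance. There, pregnant replicates 22 and 23 stood far apart at 35.5 and -28.0, with non-pregnant replicates 4 and 6 between them at -2.91 and 9.53.

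**Figure D1:**
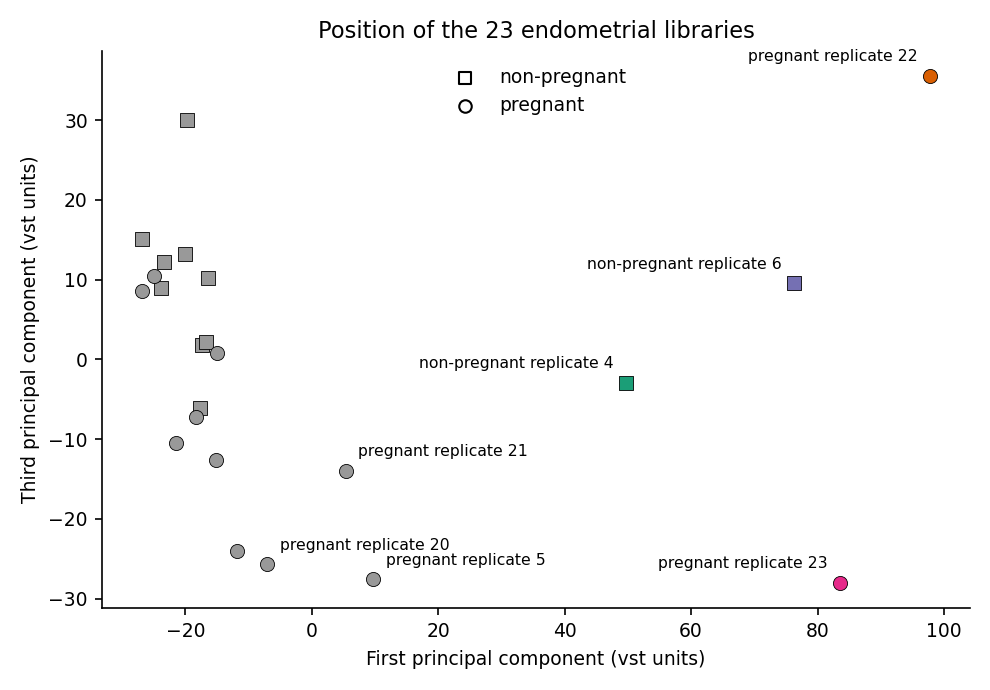
Positions of the 23 libraries on the first (x axis) and the third (y axis) principal component of the vst values, in vst units. Squares are non-pregnant and circles pregnant cows; the 4 coloured libraries lie at 49.7 to 97.8 on the x axis, the 19 grey ones at 9.75 or less, and along the y axis pregnant replicates 22 and 23 lie at opposite ends.

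Set against the other 19 cows with pregnancy status in the model, 1755 genes (11.8% of those tested) were higher in the 4 biopsies by 1 or more on the log2 scale, that is by 2-fold or more, and 1993 genes (13.4%) were lower by as much. Together these were 3748 genes (25.2%), and the shares describe the contrast that chose the biopsies. A log2 fold change of 2 or more was found for 636 genes higher and 802 lower, and of 3 or more for 212 higher and 358 lower. The remaining 74.8% of genes lay within 1 of no difference, and the median over all genes was -0.01. All 4 biopsies lay above all 19 others at 740 genes (4.98%) and below all 19 at 730 genes (4.92%), 1470 genes (9.9%) in all. Of these, 569 (3.83% of genes tested) were also higher by 1 or more and 598 (4.03%) lower, which is 32.4% of the higher and 30.0% of the lower genes. Without pregnant replicates 20 and 21, 1873 genes were higher and 1914 lower, and without pregnant replicate 5 the counts were 1791 and 2002.

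The differences were not spread evenly over levels of expression. Levels are given as CPM, counts scaled to a common library size with the TMM method. Among the 547 genes with a mean under 1 CPM, 8.41% were higher and 24.7% lower in the 4 biopsies. Between 1 and 4 CPM the shares were 19.6% and 24.1% of 2179 genes. They were 16.0% and 12.9% of 3880 genes between 4 and 16 CPM, and 8.99% and 9.40% of 5192 genes between 16 and 64 CPM. Among the 3054 genes at 64 CPM or more, 6.42% were higher and 11.3% lower, so abundant genes were also involved. Genes with low means have few counts behind each value. The filter required a minimum count in about as many libraries as the smaller pregnancy group holds, well over 4. Genes with enough counts only in the 4 biopsies, or in these and a few other cows, could therefore not pass it. Genes with counts in the other cows alone could pass. A filter of at least 1 CPM in at least 4 libraries added 313 genes. Of these, 142 (45.4%) were higher and 98 lower in the 4 biopsies by 1 or more.

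The genes that were higher took a larger part of the RNA in each of the 4 biopsies. The 1755 higher genes held 12.7% of the normalised counts in non-pregnant replicate 4, 16.9% in non-pregnant replicate 6, 17.8% in pregnant replicate 22 and 19.2% in pregnant replicate 23, against 2.96 to 7.20% in the 19 others. The highest of the 19 was pregnant replicate 5, and the next reached 4.61%. The 1993 lower genes held 7.65%, 4.65%, 1.89% and 3.01% in the same order, against 11.4 to 16.6% in the others. The 2 sets of libraries did not overlap on either share, as follows from how the genes were chosen. Among the 4, the lower genes took the smallest share in pregnant replicate 22 and the largest in non-pregnant replicate 4.

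Each biopsy was also compared alone with the mean of the other 19 cows, and each of the 19 with the mean of the remaining 18, on log2 CPM. Non-pregnant replicate 4 deviated by 1 or more at 1573 genes upwards and 1202 downwards, the fewest of the 4. Non-pregnant replicate 6 deviated at 1917 and 1923 genes, pregnant replicate 22 at 2088 and 2834, and pregnant replicate 23 at 1927 and 2591. In the 19 others the medians were 374 genes upwards and 522 downwards. The shallow pregnant replicates 20 and 21 reached 1572 and 1915 genes upwards and 967 and 1799 downwards, so the number of deviating genes alone did not separate the 4. Without this pair the other 17 reached at most 1064 upwards and 1218 downwards.

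**Figure D2:**
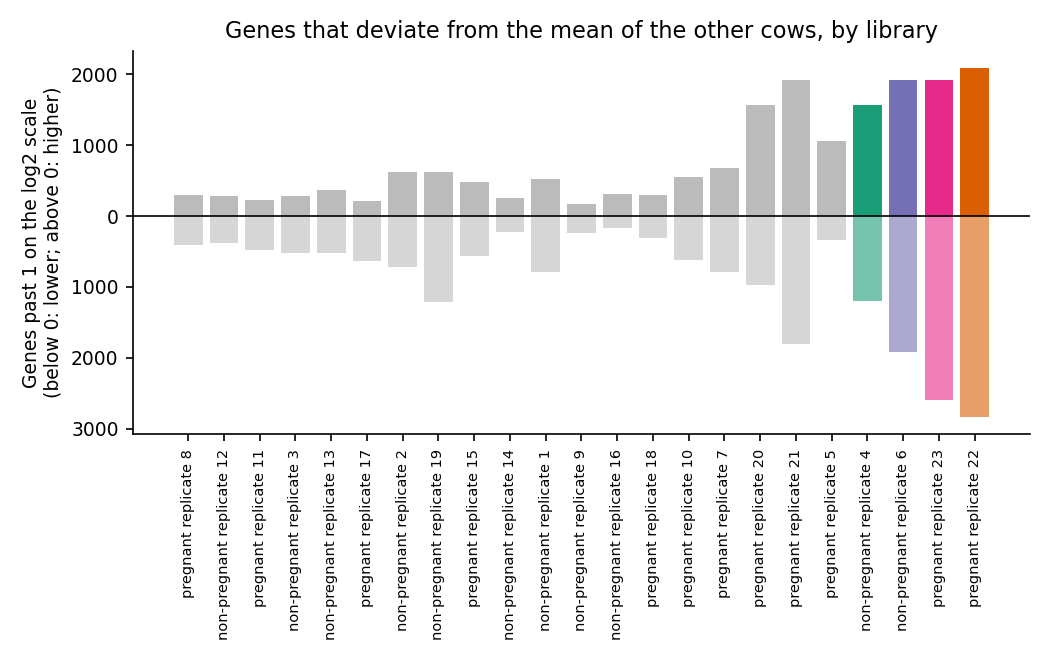
Number of genes per library (y axis) that lay 1 or more on the log2 scale above (bars upwards) or below (bars downwards) the mean of the other cows, with the 4 divergent biopsies coloured at the right and the libraries in order of the first principal component within each set. Pregnant replicate 22 deviates at 2088 and 2834 genes, and pregnant replicates 20 and 21 are the grey libraries with the longest upward bars.

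The genes that deviated were largely shared by the 4, which follows in part from the choice of these genes on the same 4 and 19 libraries. Of the genes higher in the 4 as a group, 72.3% were up by 1 or more in non-pregnant replicate 4, 87.9% in non-pregnant replicate 6, 82.5% in pregnant replicate 22 and 69.4% in pregnant replicate 23. In pregnant replicates 20 and 21 the share was 27.2% each, in pregnant replicate 5 it was 35.2%, and in the other 16 it was at most 6.61%. Of the genes lower in the 4 as a group, 51.0%, 79.9%, 91.7% and 86.0% were down by as much in replicates 4, 6, 22 and 23. In the 19 others this share was 3.06 to 26.8%. Pregnant replicate 5 thus showed part of the upward pattern, with a median deviation of 0.73 over the higher genes, while its median over the lower genes was 0.04. In non-pregnant replicate 4 the medians were 1.43 and -1.02, the smallest of the 4 in both directions, and in pregnant replicate 22 they were 1.92 and -2.81, the largest.

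Larger differences were found at genes whose symbols were not at hand, and 2 in each direction are given here by identifier. They had the largest fold changes among genes at which all 4 biopsies lay beyond all 19 others with a mean of at least 5 CPM in the higher set and, for the lower genes, more than 10 counts in the 4, a rule set after the values were seen. ENSBTAG00000006263 stood at 2502 CPM in non-pregnant replicate 4, 2773 in non-pregnant replicate 6, 7279 in pregnant replicate 22 and 2978 in pregnant replicate 23. In the 19 others it ranged from 2.18 to 641 CPM with a median of 36.8, the highest being pregnant replicate 5 and the next 194 CPM. ENSBTAG00000010062 stood at 39.8, 47.3, 59.4 and 14.8 CPM in the same order, against 0.0863 to 5.19 CPM in the others (median 0.432). Both were above every other cow in all 4 biopsies. ENSBTAG00000012461 was nearly absent from the 4, with 0.560 and 0.0986 CPM in non-pregnant replicates 4 and 6 and no read in pregnant replicates 22 and 23, 11 counts in all, against 7.58 to 178 CPM in the others (median 58.1). ENSBTAG00000008452 had 16 counts in all 4 together, at 0.623, 0.197, 0.0538 and 0.0928 CPM, against 6.78 to 111 CPM (median 52.6). At both of these genes all 4 biopsies lay below all 19 others, and at both non-pregnant replicate 4 kept the highest level of the 4.

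The 50 receptivity genes comprise 32 that the study called more expressed (UP) and 18 less expressed (DOWN) in cows that became pregnant. They were selected in part on Holstein cows of this series, so they are no independent evidence of a direction. Of the 50 genes, 2 (4%) were higher and 7 (14%) lower in the 4 biopsies by 1 or more, against 11.8% and 13.4% of all genes tested. The median log2 fold change was -0.10 over the 50 genes and -0.01 over all genes. Both of the higher and 6 of the lower genes were UP genes, whose median was -0.18. Among the DOWN genes 1 was lower and none higher, and the median was 0.08. At 22 of the 50 genes at least 1 of the 4 biopsies lay below all 19 others, at 11 at least 1 lay above, and at 19 neither occurred. Over all genes tested the shares were 32.2% below, 31.8% above and 39.2% neither. All 4 together lay beyond the 19 at 2 genes, SYT1 and SKA2, both below. Over all genes tested, all 4 lay below all 19 at 4.92% and above them at 4.98%.

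Among the 8 regulators of signalling and transcription, 2 were higher and none lower, against 11.8% and 13.4% of all genes tested. Counts in this and the following groups rest on 9 genes or fewer and were not tested. BHLHE40 (ENSBTAG00000009863), a repressor that acts in the circadian clock and in responses to hormones and hypoxia, stood at 167 CPM in non-pregnant replicate 4, 205 in non-pregnant replicate 6, 30.6 in pregnant replicate 22 and 552 in pregnant replicate 23. The 19 others ranged from 8.54 to 64.8 CPM with a median of 16.4. Of the 4 biopsies 3 lay above all others and pregnant replicate 22 lay below 1 of them, pregnant replicate 5, which alone of the 19 exceeded 23.7 CPM. On the log2 scale the difference was 3.66 ± 0.36 (SE, n = 4 and 19), and it was 2.93 when pregnant replicate 23 was left out. This SE and those below come from the fitted model, on groups chosen by these same values. They do not measure the spread among the 4 biopsies. For BHLHE40 the deviations of the 4 from the mean of the others had an SD of 1.73 in log2 CPM.

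TRIB1 (ENSBTAG00000023179), a pseudokinase that brings targets to the ubiquitin ligase COP1, had the same highest and lowest biopsy. It stood at 366 CPM in non-pregnant replicate 4, 167 in non-pregnant replicate 6, 58.0 in pregnant replicate 22 and 576 in pregnant replicate 23, against 20.4 to 104 CPM in the others (median 26.5). Again pregnant replicate 23 was highest, pregnant replicate 22 overlapped the 19 and pregnant replicate 5 was the highest of the 19, followed by pregnant replicate 7 at 80.7 CPM. Its log2 fold change was 3.16 ± 0.34 (SE, n = 4 and 19). RFWD2, which encodes COP1 itself and is named here after its values were seen, stood at 124 to 132 CPM in the 4, within the range of the others (94.8 to 156 CPM).

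RNF19A (ENSBTAG00000017833), a DOWN gene that encodes a ubiquitin ligase, came just short of a 2-fold difference. Its levels were 352, 237, 182 and 357 CPM in replicates 4, 6, 22 and 23, against 114 to 288 CPM in the others (median 137), where pregnant replicate 21 was highest and the next lay at 166 CPM. RNF19A had a log2 fold change of 0.95 ± 0.17 (SE), 1.05 without pregnant replicates 20 and 21, and 1.13 without pregnant replicate 22. Non-pregnant replicate 4 and pregnant replicate 23, the pair with the most TRIB1, also had the most RNF19A.

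**Figure D3:**
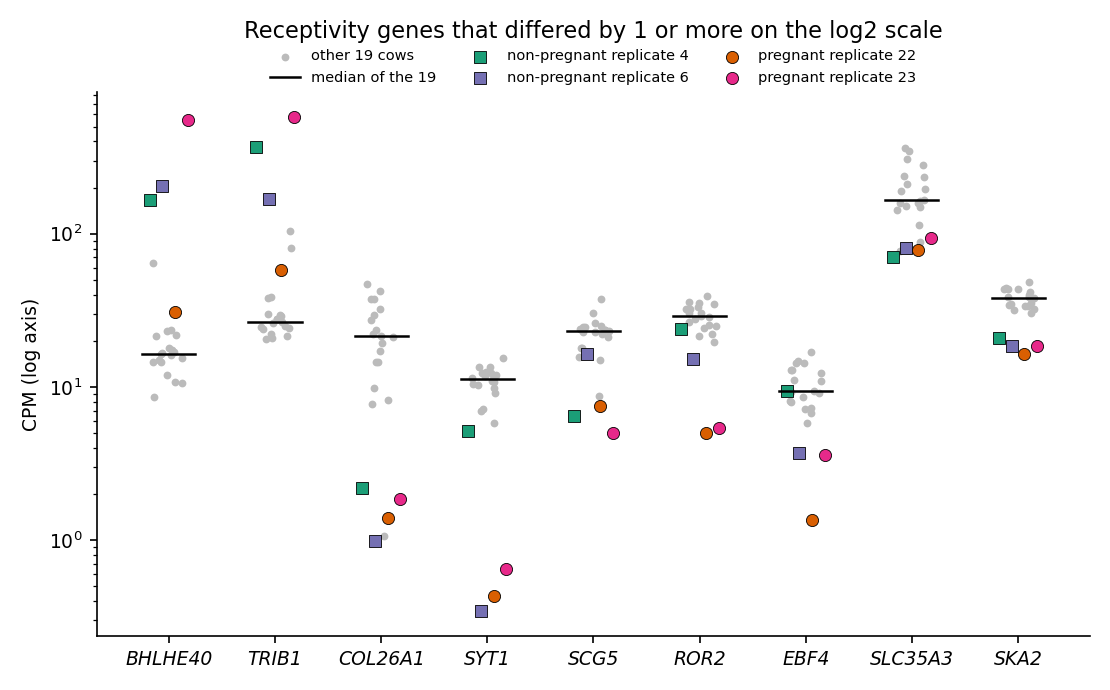
CPM (y axis, log scale) of the 9 receptivity genes that differed by 1 or more on the log2 scale, in the 4 divergent biopsies (coloured), the other 19 cows (grey points) and their median (bar). All 4 coloured points lie below the grey ones for SYT1 and SKA2, and for BHLHE40 and TRIB1 3 of the 4 lie above them.

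Of the 5 genes of matrix, membrane and cytoskeleton, all had a negative log2 fold change, as had 51% of all genes. Past 1 was 1 of them, against 25.2% of all genes in either direction. Within non-pregnant cows PPIC and TMEM45A had values above 0, at 0.05 and 0.13. COL26A1 (ENSBTAG00000011818), which encodes a collagen of the extracellular matrix, had the lowest fold change of the 50 genes. It stood at 2.18 CPM in non-pregnant replicate 4, 0.986 in non-pregnant replicate 6, 1.40 in pregnant replicate 22 and 1.86 in pregnant replicate 23. The 19 others ranged from 1.07 to 46.6 CPM with a median of 21.5. A single one of them, non-pregnant replicate 19 at 1.07 CPM, lay among the 4, and the next lowest had 7.78 CPM. COL26A1 had a log2 fold change of -3.72 ± 0.61 (SE, n = 4 and 19), between -4.12 and -3.53 when any 1 of the 4 was left out. MYH10, a non-muscle myosin heavy chain named after its values were seen, was low in 3 of the biopsies at 69.5, 111 and 93.5 CPM, below all 19 others (143 to 337 CPM), whereas non-pregnant replicate 4 had 239 CPM. Its log2 fold change was -0.77 ± 0.24 (SE), and -1.35 without that biopsy.

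Both genes of regulated secretion were lower, against 13.4% of all genes tested. SYT1 (ENSBTAG00000034693), the calcium sensor synaptotagmin 1 that triggers fusion of secretory vesicles, had 5.17 CPM in non-pregnant replicate 4 but 0.345, 0.431 and 0.650 CPM in non-pregnant replicate 6 and pregnant replicates 22 and 23. The 19 others had 5.80 to 15.4 CPM with a median of 11.3. All 4 lay below all 19, with non-pregnant replicate 4 close to the lowest of them and the other 3 far below. SYT1 had a log2 fold change of -2.76 ± 0.49 (SE, n = 4 and 19), and it was -4.59 without non-pregnant replicate 4. SCG5 (ENSBTAG00000032613), the chaperone 7B2 of a prohormone convertase, had 6.48, 16.4, 7.53 and 5.01 CPM in the same order, against 8.78 to 37.2 CPM (median 23.2). Here the exception was non-pregnant replicate 6, which lay within the range of the others. SCG5 had a log2 fold change of -1.32 ± 0.29 (SE).

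Of the 4 genes of Wnt signalling, 1 was lower, against 13.4% of all genes tested. ROR2 (ENSBTAG00000005092), a receptor tyrosine kinase that binds WNT5A, had 24.0 CPM in non-pregnant replicate 4, 15.2 in non-pregnant replicate 6, 5.00 in pregnant replicate 22 and 5.38 in pregnant replicate 23. The 19 others had 19.7 to 39.0 CPM (median 29.2), so that non-pregnant replicate 4 overlapped them and the other 3 lay below. ROR2 had a log2 fold change of -1.32 ± 0.28 (SE), and within each status it was -0.57 for the non-pregnant and -2.46 for the pregnant pair. The co-repressors TLE4 and CTBP2 had log2 fold changes of -0.39 ± 0.18 and 0.20 ± 0.16. HHEX, a homeobox repressor, went in opposite directions within the pregnant pair, at 3.93 CPM in pregnant replicate 22 and 25.7 CPM in pregnant replicate 23, both outside the 8.72 to 16.8 CPM of the 19.

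Of the 9 genes of mitosis, chromatin and DNA repair, 1 was lower, against 13.4% of all genes tested. SKA2 (ENSBTAG00000021680), which helps to hold chromosomes to the spindle, differed evenly, with 20.9, 18.4, 16.5 and 18.6 CPM in replicates 4, 6, 22 and 23. The 19 others had 30.4 to 48.3 CPM (median 38.3), so that no biopsy overlapped them. SKA2 had a log2 fold change of -1.03 ± 0.12 (SE, n = 4 and 19), between -1.12 and -0.96 when any 1 of the 4 was left out. Without pregnant replicate 22 it was -0.96 and no longer past 1. CHAF1A, a chromatin assembly factor, had a log2 fold change of -0.58 ± 0.18, and 3 of the 4 biopsies lay below all 19. DIDO1, a chromatin reader, had one of 0.44 ± 0.10, with the 4 at 60.1 to 70.4 CPM against 36.8 to 61.9 CPM. CHAF1A and DIDO1 are named after their values were seen.

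EBF4 (ENSBTAG00000037757), a transcription factor of the early B-cell factor family, had 9.40, 3.70, 1.35 and 3.62 CPM in the same order, against 5.85 to 16.9 CPM in the others (median 9.37). Non-pregnant replicate 4 lay at the median of the others and the remaining 3 lay below all of them. EBF4 had a log2 fold change of -1.20 ± 0.35 (SE), -1.88 without non-pregnant replicate 4 and -0.83 without pregnant replicate 22. ZSCAN12, a zinc finger protein named after its values were seen, had 13.7 to 19.1 CPM in the 4 and 18.4 to 48.3 CPM in the others, with a log2 fold change of -0.81 ± 0.17.

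SLC35A3 (ENSBTAG00000012454), which carries UDP-N-acetylglucosamine into the Golgi for glycan synthesis, was the single DOWN gene that was lower by more than 2-fold. It had 70.9, 80.6, 78.8 and 93.1 CPM in replicates 4, 6, 22 and 23, against 77.0 to 361 CPM in the others (median 166). The 4 biopsies lay close together at the low end of the 19, where pregnant replicate 5 was lowest. On the log2 scale the difference was -1.24 ± 0.30 (SE, n = 4 and 19), and -1.63 and -0.88 within non-pregnant and pregnant cows. Among the other genes of glycans and the endoplasmic reticulum, SEL1L, an adaptor of protein degradation at that membrane, had 69.5 and 69.7 CPM in the non-pregnant pair and 84.7 and 95.4 CPM in the pregnant pair. The latter values lay above the 19 others, whose highest was 83.5 CPM.

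None of the 4 genes of mitochondria and fatty acids, the 3 of endosomes or the 4 of RNA handling was past 1. Over all genes tested, 25.2% were past 1 in either direction. The log2 fold changes of these groups ran from -0.50 to 0.22. SUCLG2, a subunit of succinyl-CoA synthetase, had 144, 188, 180 and 148 CPM in the same order, within the 117 to 214 CPM of the others. Of all 50 genes, 34 lay within 0.5 of no difference, against 54.6% of all genes tested.

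**Figure D4:**
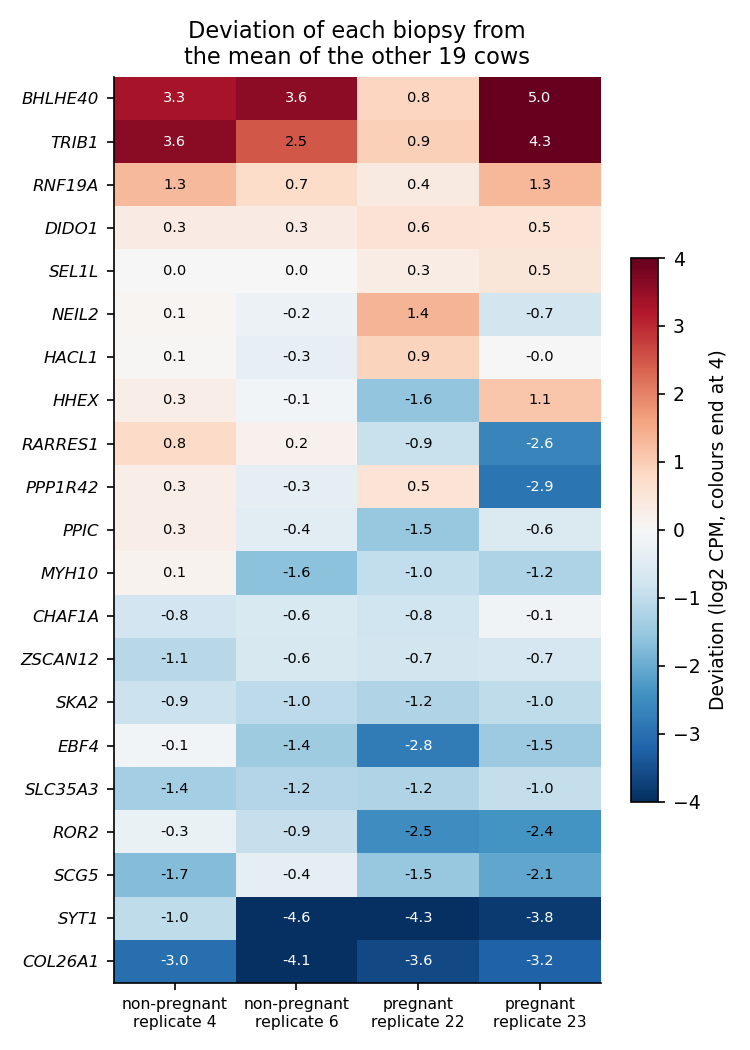
Deviation of each of the 4 biopsies (columns) from the mean of the other 19 cows, in log2 CPM, for 21 receptivity genes. Each line is a gene, roughly in order of log2 fold change (red higher, blue lower, colours end at 4). COL26A1, SLC35A3 and SKA2 are blue in all 4 columns, whereas HHEX and RARRES1 change colour between columns.

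In every pair of the 4 biopsies, deviations from the mean of the other cows were more strongly correlated than in any pair of the other cows. Such a correlation measures a shared direction of departure, not likeness of whole profiles. Cows that lie close to the mean can be alike and still have a low value. Over the genes tested, the deviations of each biopsy from the mean of the other cows were correlated between biopsies with a Pearson r of 0.75 for non-pregnant replicates 4 and 6, 0.70 for non-pregnant replicate 4 and pregnant replicate 22, and 0.61 for non-pregnant replicate 4 and pregnant replicate 23. For non-pregnant replicate 6 it was 0.79 with pregnant replicate 22 and 0.73 with pregnant replicate 23, and for the pregnant pair 0.64. All 6 values share the same reference cows and the selection on the first component, and genes are no independent replicates. Among the 171 pairs of the other 19 cows r ranged from -0.30 to 0.52, with a median of 0.06. Shared status did not order the pairs, since the pregnant pair lay below 4 of the other 5 and the highest value joined non-pregnant replicate 6 with pregnant replicate 22.

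Taking each biopsy against the mean of the other 3, r was 0.76 for non-pregnant replicate 4, 0.86 for non-pregnant replicate 6, 0.79 for pregnant replicate 22 and 0.72 for pregnant replicate 23. Non-pregnant replicate 6 was thus nearest to the pattern the 4 had in common. The 19 others had an r with the mean of the 4 between -0.25 and 0.41, the highest in pregnant replicate 5 and the next 0.17 in pregnant replicate 21.

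At 640 genes all 4 biopsies deviated upwards by 1 or more, and at 753 genes all 4 deviated downwards. A further 584 genes were up and 810 down in exactly 3 of the 4, 594 and 683 in 2, and 977 and 1096 in 1. In these counts none of the 4 deviated the opposite way. At 532 genes some of the 4 deviated upwards and others downwards, and at 8183 genes none of them deviated. Non-pregnant replicate 4 was the one most often missing from the downward pattern, with 636 genes that were down in the other 3 alone, against 104 for non-pregnant replicate 6, 33 for pregnant replicate 22 and 58 for pregnant replicate 23. From the upward pattern pregnant replicate 23 was missing most often, at 416 genes, followed by non-pregnant replicate 4 at 214, pregnant replicate 22 at 107 and non-pregnant replicate 6 at 41. The numbers of missing genes, in both directions, include genes at which the missing biopsy deviated by 1 or more the opposite way. Genes that deviated in a single biopsy were most frequent in the pregnant pair, with 374 up and 527 down in pregnant replicate 22 and 419 up and 378 down in pregnant replicate 23. Non-pregnant replicate 4 had 101 and 69 such genes, and non-pregnant replicate 6 had 83 and 122.

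The biopsies did not fall into a clear pair of kinds. Dividing the 4 by status, 296 genes were higher in both non-pregnant biopsies than in both pregnant ones by at least 1 on the log2 CPM scale, and 41 were lower. Dividing them into non-pregnant replicate 4 with pregnant replicate 22 against the others gave 63 genes higher and 235 lower. Non-pregnant replicate 4 with pregnant replicate 23 against the others gave 165 higher and 68 lower. A gene can follow only 1 of these divisions by this measure.

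Among the receptivity genes described above, ROR2 divided the biopsies by status, and TRIB1 was higher in non-pregnant replicate 4 with pregnant replicate 23, each by more than 1. RARRES1 (ENSBTAG00000014713), named for its response to retinoids, also divided the biopsies by status, with 409 and 271 CPM in non-pregnant replicates 4 and 6 and 130 and 38.7 CPM in pregnant replicates 22 and 23. The 19 others had 76.2 to 519 CPM (median 264), so that pregnant replicate 23 alone lay outside them. Within status its log2 fold change was 0.81 for the non-pregnant and -2.03 for the pregnant pair, and over all cows -0.17 ± 0.47 (SE). By less than 1, other genes divided the biopsies differently. PPP1R42, a regulatory subunit of protein phosphatase 1, was at 8.53 and 10.3 CPM in non-pregnant replicate 4 and pregnant replicate 22 and at 5.52 and 0.835 CPM in the other pair, the last value being below all 19 others (4.20 to 10.8 CPM). FN3KRP, a kinase of glycated proteins, was lower in non-pregnant replicate 4 and pregnant replicate 23 (22.7 and 19.5 CPM) than in the other pair (29.0 and 28.5 CPM), all within the range of the 19 (14.0 to 30.1 CPM).

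Since the 4 came in equal numbers from each status, the contrast could be made within status with no library shared. Non-pregnant replicates 4 and 6 against the other 9 non-pregnant cows gave 1737 genes higher (11.7%) and 1559 lower (10.5%) by 1 or more. Pregnant replicates 22 and 23 against the other 10 pregnant cows gave 1932 higher (13%) and 2558 lower (17.2%). Of these, 1384 were higher in both contrasts, which is 79.7% of the non-pregnant and 71.6% of the pregnant list, and 1293 were lower in both, 82.9% and 50.5%. In opposite directions past 1 were 42 genes. Across genes the log2 fold changes of both contrasts had a Pearson r of 0.80 and a Spearman rho of 0.79. Both pairs were chosen on the same component, so this likeness belongs to the selection. The pregnant pair had 2558 lower genes where the non-pregnant pair had 1559, and that difference was not tested.

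**Figure D5:**
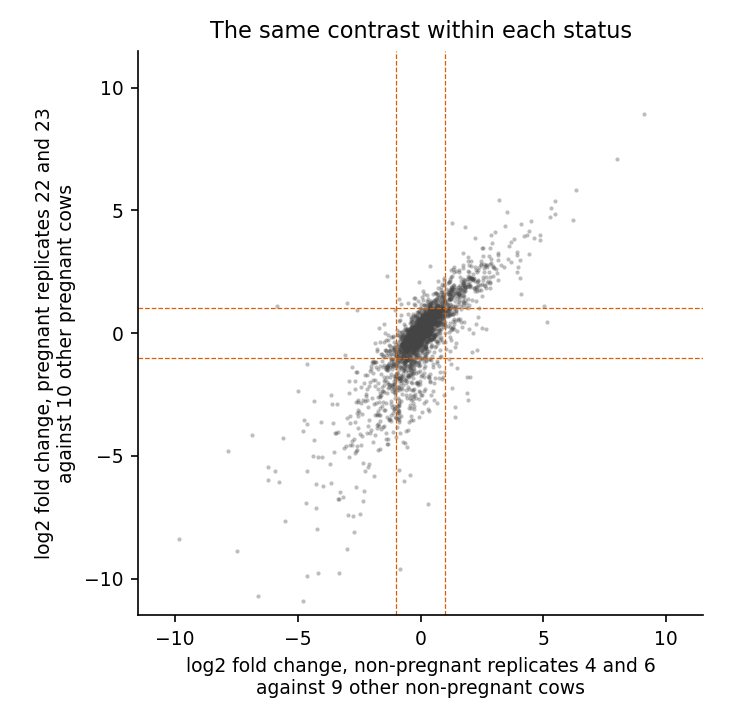
Log2 fold changes of non-pregnant replicates 4 and 6 against 9 non-pregnant cows (x axis) and of pregnant replicates 22 and 23 against 10 pregnant cows (y axis), for 2971 genes, 1 in 5 of those tested; dashed lines mark 1 and -1. Points follow the diagonal (r = 0.80 over all genes), and below it many genes lie lower in the pregnant pair.

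The 4 cows were then compared with the other 19 on measures that had no part in the choice, each with a two-sided exact permutation test (8855 arrangements) and adjusted over 6 measures by the Benjamini-Hochberg method. These p-values measure the spread between cows. Parity was 1.25 ± 0.5 in the 4 and 1.84 ± 0.898 in the others (SD, n = 4 and 19; exact permutation p = 0.360, adjusted p = 0.978). Days from calving to transfer were 188.25 ± 21.5 and 183.7 ± 48.4 (exact permutation p = 0.837, adjusted p = 1). Both reproductive measures differed by less than the SD of the 19 others. The parity difference of -0.592 was larger in size than the SD of the 4. The log2 of the counts in genes was 23.98 and 24.11 (exact permutation p = 0.612, adjusted p = 0.978).

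The share of reads outside genes was 53.2% ± 6.40 in the 4 and 51.0% ± 10.2 in the others (SD, exact permutation p = 0.652, adjusted p = 0.978). In the single biopsies it was 46.8%, 48.6%, 59.2% and 58.2% for replicates 4, 6, 22 and 23. The pregnant pair thus lay higher than the non-pregnant pair, though within the range of the 19 (39.2 to 76.7%). The share of ambiguous reads was 0.00520% and 0.00621% (exact permutation p = 0.151, adjusted p = 0.908). Without pregnant replicates 20 and 21 the difference between the 4 and the others, the 4 minus the rest, was 5.09 points for reads outside genes (adjusted p = 0.306, exact permutation test). For ambiguous reads that difference was then -0.00132 points (adjusted p = 0.0642, exact permutation test), and no measure passed 0.05. Non-pregnant replicate 6 and pregnant replicates 22 and 23 had 0.00526%, 0.00492% and 0.00402% ambiguous reads. These lay below the lowest of the other cows left, pregnant replicate 5 at 0.00543%, while non-pregnant replicate 4 had 0.00662%. Of the 4 cows 50% and of the others 52.6% were pregnant (Fisher's exact test p = 1, adjusted p = 1). With 4 animals, small differences on these measures would not have been detectable.

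Pregnant and non-pregnant cows, the groups of the study, were compared with a separate term for the 4 biopsies. The study used some of these cows, which could not be tied to single libraries, so all 23 entered the fit. With edgeR's quasi-likelihood test, 0 of 14852 genes (0%) passed an adjusted p of 0.05, and 2396 had an unadjusted p below 0.05. Without the term the counts were 0 and 1556. The smallest adjusted p was 0.0946 with the term and 0.341 without it. With DESeq2's Wald test 186 genes (1.25%) passed with the term, 90 higher and 96 lower in pregnant cows, 8 (0.0539%) passed without it and 180 (1.21%) when the 4 biopsies were left out. None of the 50 receptivity genes passed in any of these fits. The number of genes that one tool called between the pregnancy groups thus depended on how the 4 biopsies were handled. The other tool called none in any of the fits with or without them. The 4 were chosen on the same counts, so a term for them, or their removal, takes away variation by selection. The p-values of those fits are therefore a description.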

How the data were processed

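Raw read counts per Ensembl gene, 1 file for each of 23 cows, were used as deposited by the authors. STAR, HTSeq and the build UMD3.1 are named in the submitters' processing notes for alignment and counting. Not given in the sources used here are tool versions, annotation release and use of strand. The final lines of each file (reads outside genes, ambiguous) entered library measures alone. In 19 of 23 files the file number differs from the number in the sample title; each file was taken by its own sample record, and replicates carry the title number. No 2 libraries of a group looked like a single library deposited again (121 pairs compared on genes with 10 or more counts; chi-square per degree of freedom at least 33.2).

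Counts were filtered by edgeR 4.0.16 with its default for the 2 pregnancy groups and normalised by TMM in R 4.3.3. Log2 fold changes came from its quasi-likelihood fit with pregnancy status as covariate, and standard errors from the fold change and its F statistic. The principal components used blind vst values (DESeq2 1.42.0). Deviations used log2 CPM with a prior count of 2. Exact tests used SciPy 1.17.1 in Python 3.11.15. Scripts were tested on simulated data.

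The members, gene lists and tests were chosen with earlier results of these data known. Named were the study's genes past a log2 fold change of 1, and the 5 genes in each direction, with a range of at least 5 CPM, that most divided the 4 into pairs. Further genes that stand for their group were chosen after their values were seen. Symbols were paired with identifiers for the study's 50 genes alone, so lists with 557 further symbols (cell types, hormone response, matrix, proliferation and others) could not be matched. Single values of 2 of the 50 are not reported here. Alternatives were DESeq2 size factors, DESeq2's fit and Wald test, other filters, models without status or with parity and days, log2 CPM means, each status alone, leaving out each biopsy, and leaving out replicates 20 and 21 or, added after seeing the data, replicate 5.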

Additional observations from a re-analysis of the deposited data

Results flagged for a closer look

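Over 48 receptivity genes and 6 other measures, 7 of the 54 groups of 4 values held a biopsy whose distance to the nearest of the other 3 passed Dixon's 95% limit for the range of the 4. Chance passes this limit in about 1 in 20 groups, a rate that does not hold for gene values that helped to choose the biopsies or for parity in whole numbers, so the values are a description. Pregnant replicate 22 stood above the other 3 for STAG2, a cohesin subunit (373 CPM against at most 318), and for CLK2, a kinase of splicing factors (63.8 CPM). Pregnant replicate 23 stood above them for RIN3, an activator of endosomal Rab5 (8.26 CPM), and FRS2, an adaptor of fibroblast growth factor receptors (52.3 CPM), and below them for GLB1L, a galactosidase-like protein (23.9 CPM). Non-pregnant replicate 4 stood above them for SYT1 (5.17 CPM). Non-pregnant replicate 6 came from a cow of parity 2 and the other 3 from cows of parity 1.

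At 2 of the 48 genes both biopsies of one status lay above the mean of the other cows of that status, and both biopsies of the other status lay below theirs. The difference of log2 CPM deviations, pregnant pair minus non-pregnant pair, was -3.03 for RARRES1 and 0.85 for HACL1 (an enzyme of fatty acid alpha-oxidation). These differences were not tested.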

How the results depend on the processing

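The 4 biopsies were the same and alone past 5 median absolute deviations with log2 CPM, with the 500 most variable genes, without a filter and without pregnant replicates 20 and 21. Numbers of genes past 1 stayed within 1.5 times of 1755 higher and 1993 lower in all alternatives but one. With no filter on low counts they were 2782 and 6571 of 23472 genes, where the median of all genes moved from -0.01 to -0.20. Leaving out each biopsy gave 1699 to 1847 higher and 1744 to 2369 lower. The median log2 fold change of the UP genes was 0.044 within non-pregnant and -0.36 within pregnant cows, and -0.35 to -0.04 when 1 biopsy was left out. The median of the DOWN genes was -0.15 within non-pregnant cows and -0.14 to 0.14 with 1 biopsy left out, negative without pregnant replicate 22. DESeq2's Wald test called 186 genes between the pregnancy groups with the term for the 4 and, chosen after seeing the data, 8 without the term and 180 without the 4 biopsies, where edgeR called 0 (2396, 1556 and 2351 at an unadjusted p below 0.05). The cause of these shifts was not tested. None of the 9 receptivity genes past 1 changed direction in these alternatives. SYT1 went from -2.76 to -4.59 without non-pregnant replicate 4, and ROR2 was -0.57 in the non-pregnant and -2.46 in the pregnant pair. No paired analysis was possible because the title numbers run through both groups without a number in common.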
